A study of Mus musculus with 14 samples.

Results

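The HoxA genes are a row of homeobox genes on mouse chromosome 6, and Hotairm1 is a long noncoding RNA read from the opposite strand beside Hoxa2. The list holds 9 members, Hotairm1 with Hoxa2, Hoxa3, Hoxa4, Hoxa5, Hoxa7, Hoxa9, Hoxa10 and Hoxa11, and they were chosen by the high values of Hotairm1 in tumours on day 27 of PLX4032 against the controls. Rows for 6 of the 9 members were found among the 18481 genes of the deposited table, and Hoxa4, Hoxa10 and Hoxa11 were not analysed here. Of those 6 members, 5 reached a value of 1 in at least 2 of the 14 tumours and were tested, while Hoxa9 did not. Hoxa2 and Hoxa3 reached that level only through tumours of day 27. Hoxa5 also passed only with them, because apart from day 27 it reached 1 in PLX4032 day 3 tumour 2 (1.06) alone.

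The study followed subcutaneous tumours of SMM102, a mouse melanoma line, in female C57BL/6J mice that were 6 to 8 weeks old when the cells were injected. Treatment started at a tumour volume of 150 to 300 mm3. PLX4032, the BRAF kinase inhibitor vemurafenib, was injected intraperitoneally, 50 mg/kg each time, on 5 days of the week. There were 2 treated tumours each for days 3, 6 and 18 and 4 for day 27. The controls, 2 of day 3 and 2 of day 6, are called untreated in the sample labels and vehicle-treated in the series' design text. The tumours of day 27 are the left and right tumours of 2 mice, and the table's columns are not tied to mice. No control was taken on day 18 or 27, so on those days treatment and time cannot be told apart. A control of day 6 and a treated tumour of day 3 carry the same animal number, which may or may not mean the same mouse. The labels of day 18 do not say whether its 2 samples come from 2 mice, so p-values measure only the spread between these samples. All values below are the deposited signal, which is on a per-length scale like TPM, and its sequencing depth is unknown.

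Hox proteins are transcription factors that tell cells their position along the body axis. Genes at the 3′ end of the cluster are switched on first and furthest forward in the embryo, and those at the 5′ end later and further back. Polycomb complexes keep the cluster silent, MLL complexes keep it active, and retinoic acid turns on the 3′ end. Hotairm1 was described in human myeloid cells, where it rises with differentiation together with genes at that end. Adult skin fibroblasts keep the Hox pattern of the body site they came from.

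On the GRCm38 assembly (mm10), with GENCODE M21 positions, Hotairm1 lies at chr6:52156902-52162119 on the plus strand. The coding members are on the minus strand, with Hoxa2 at chr6:52162417-52164831, Hoxa3 at chr6:52169062-52213336, Hoxa5 at chr6:52201754-52204587, Hoxa7 at chr6:52214491-52221854 and Hoxa9 at chr6:52223100-52231089. Hotairm1 has 1025 exonic bases, of which 198 (19.3%) are also exonic on the opposite strand. Hoxa3 shares 503 of 6014 exonic bases (8.36%) with the antisense transcript Hoxaas2, and Hoxa7 shares 586 of 2876 (20.4%) with Hoxaas3. Use of the strand in counting is not stated, so reads from those shared bases cannot be told apart.

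RefSeq promoter sequences on GRCm38.p6 were matched by symbol for 5 of the 6 members with a row, all but Hotairm1. Those of Hoxa2, Hoxa3 and Hoxa5 are shown because these genes were high together on day 27, and that of Hoxa7 because it was not. Each window runs 5′ to 3′ on the minus strand from 250 bases before to 50 after the RefSeq start. That start differs from the GENCODE 5′ end for Hoxa3 and Hoxa7, whose windows lie inside the GENCODE genes given above. The Hoxa7 window reaches only to 52218823, where the GENCODE gene begins at 52221854, so it is not the promoter at that 5′ end. The motifs searched, on both strands, were the CCAAT box (CCAAT), the GC box (GGGCGG), the nuclear receptor half-site (AGGTCA) and the HOX-PBX element (TGATNNAT). Capitals mark matches, and no match overlapped another.
Hoxa2, chr6:52164782-52165081: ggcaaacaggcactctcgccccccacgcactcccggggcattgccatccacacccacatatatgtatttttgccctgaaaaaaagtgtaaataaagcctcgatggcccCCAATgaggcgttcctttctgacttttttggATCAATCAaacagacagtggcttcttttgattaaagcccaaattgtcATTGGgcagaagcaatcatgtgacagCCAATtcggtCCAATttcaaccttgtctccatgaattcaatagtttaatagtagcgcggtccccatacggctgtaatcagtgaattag
Hoxa3, chr6:52213018-52213317: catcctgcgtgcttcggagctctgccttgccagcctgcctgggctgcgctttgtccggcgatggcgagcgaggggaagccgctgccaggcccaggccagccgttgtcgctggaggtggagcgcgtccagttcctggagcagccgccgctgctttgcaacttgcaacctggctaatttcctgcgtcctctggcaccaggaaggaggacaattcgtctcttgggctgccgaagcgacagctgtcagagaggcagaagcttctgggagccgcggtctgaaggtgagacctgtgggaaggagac
Hoxa5, chr6:52204538-52204837: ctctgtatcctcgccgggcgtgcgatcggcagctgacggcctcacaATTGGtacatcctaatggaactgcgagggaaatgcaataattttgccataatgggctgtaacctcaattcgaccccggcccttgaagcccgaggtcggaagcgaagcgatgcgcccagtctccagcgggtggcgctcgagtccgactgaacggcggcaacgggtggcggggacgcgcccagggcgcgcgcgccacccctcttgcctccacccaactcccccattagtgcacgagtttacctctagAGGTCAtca
Hoxa7, chr6:52218524-52218823: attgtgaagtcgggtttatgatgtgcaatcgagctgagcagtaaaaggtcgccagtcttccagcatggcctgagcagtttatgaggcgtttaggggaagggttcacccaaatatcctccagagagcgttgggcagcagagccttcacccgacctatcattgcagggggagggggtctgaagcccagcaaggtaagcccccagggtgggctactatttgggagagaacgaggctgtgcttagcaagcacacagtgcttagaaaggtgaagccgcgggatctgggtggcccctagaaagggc
The Hoxa2 window held 4 CCAAT boxes and 1 HOX-PBX element, and the Hoxa5 window held 1 CCAAT box and 1 nuclear receptor half-site. No letters of these motifs were found in the Hoxa3 and Hoxa7 windows. Among all 32851 promoters of the same length, 37.4% held a CCAAT box, 35.7% a GC box, 16.3% a half-site and 8.85% a HOX-PBX element. CpG pairs numbered 29 in the Hoxa5 window, 20 in the Hoxa3 window, 9 in the Hoxa2 window and 9 in the Hoxa7 window, beside a median of 7 over all promoters. None of the searched motifs was found in all 3 windows of Hoxa2, Hoxa3 and Hoxa5.

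Hotairm1 had the highest per-length signal of 8 HoxA transcripts in 14 of 14 tumours, and its own highest levels were on day 27. It had 27.4, 24.0, 20.6 and 19.9 in the PLX4032 tumours of day 27, against 1.15 and 3.31 in the controls of day 3 and 3.82 and 0.723 in the controls of day 6. The mean was 23.0 ± 3.45 on day 27 (SD, n = 4) and 2.25 ± 1.54 in the controls (SD, n = 4), a ratio of 10.2 and a difference of 3.01 in log2(value + 1). Of the 15841 genes tested, 0 had a larger log2 difference between these groups, which is the contrast Hotairm1 was picked for and is given with no test. In the earlier treated tumours it had 5.09 and 5.94 on day 3, 7.44 and 4.70 on day 6, and 5.48 and 7.85 on day 18. All 6 of these stood above the 4 controls and below the 4 tumours of day 27.

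**Figure D1:**
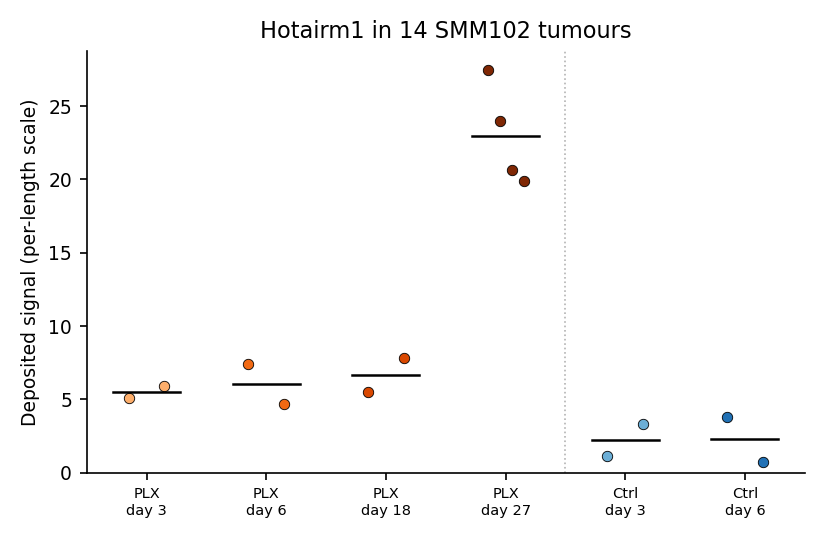
Deposited signal of Hotairm1 (y axis, per-length scale) in each of 14 tumours by group (x axis), PLX4032 groups left of the dotted line and controls right of it; points are tumours and bars are group means. The 4 tumours of day 27 lie between 19.9 and 27.4, the other treated tumours between 4.70 and 7.85 and the controls between 0.723 and 3.82.

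Genes nearer the 3′ end stood high on day 27 as well. Hoxa3, which helps to pattern the pharyngeal arches, had 5.68, 3.24, 3.78 and 3.92 in tumours of day 27, against 0.943 and 0.259 in controls of day 3 and 0.362 and 0.168 in controls of day 6. In the other treated tumours Hoxa3 had 0.465 and 0.559 on day 3, 0.313 and 0.289 on day 6, and 0.531 and 0.958 on day 18, which lay among or just above the controls. Its ratio of means on day 27 was 9.60 over the controls and 5.58 over day 18. Hoxa2, which sets the identity of the second pharyngeal arch, was low throughout but had 1.31, 1.06, 0.458 and 0.932 on day 27, against 0.0657, 0.122, 0.188 and 0 in the controls. The other 6 treated tumours had 0.0912 to 0.222 for Hoxa2, a range that overlapped the controls.

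Hoxa5, a regulator of lung and axial skeleton development, had 2.57, 1.85, 1.25 and 2.13 on day 27, against 0.123 and 0.127 in controls of day 3 and 0.442 and 0.0998 in controls of day 6. Hoxa5 was above every control on day 3 (0.619 and 1.06) and day 18 (0.723 and 0.852), as were 31.2% and 24.9% of all genes tested. On day 6 (0.258 and 0.285) Hoxa5 was not. Neighbours outside the list, Hoxa6 and Hoxaas2, were also above all controls on day 27. Hoxa6 had 0.647 to 2.16 there and 0.0618 to 0.220 in the controls, and the antisense transcript Hoxaas2 had 0.339 to 0.855 and 0 to 0.103. On day 3 Hoxa6 was above every control (0.468 and 0.922), and its treated values before day 27 overlapped those of day 27. In all, 4 of the 6 members with a row (Hotairm1, Hoxa2, Hoxa3 and Hoxa5) were higher on day 27 without overlap with the controls, as were 7.33% of all genes tested, and the choice of members used this contrast. Those 4 were also above all treated tumours of days 3, 6 and 18, beside 7.56% of all genes.

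Hoxa7 and Hoxa9, which lie further toward the 5′ end and are best known in blood progenitors and leukaemia, did not follow them. Hoxa7 had 0.769, 1.10, 0.784 and 1.28 on day 27, against 0.604, 0.0235, 0.891 and 0.294 in the controls, and these ranges overlapped. Its highest values were 1.70 and 1.82 on day 3 and 1.64 and 1.76 on day 18, while day 6 had 0.617 and 0.461. Every tumour of day 27 was below both tumours of day 18, at a ratio of means of 0.580. Hoxa9 had 0.0157, 0.0972, 0.389 and 0.283 on day 27, against 0.323, 0, 0.206 and 0.0139 in the controls. Its values were 0.859 and 0.506 on day 3, 0.395 and 0.642 on day 6, and 1.99 and 0.480 on day 18, each above every control and above every tumour of day 27. Of the 6 members with a row, Hotairm1 and Hoxa9 were above all controls in all 6 treated tumours of days 3, 6 and 18, as were 6.52% of all genes tested.

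**Figure D2:**
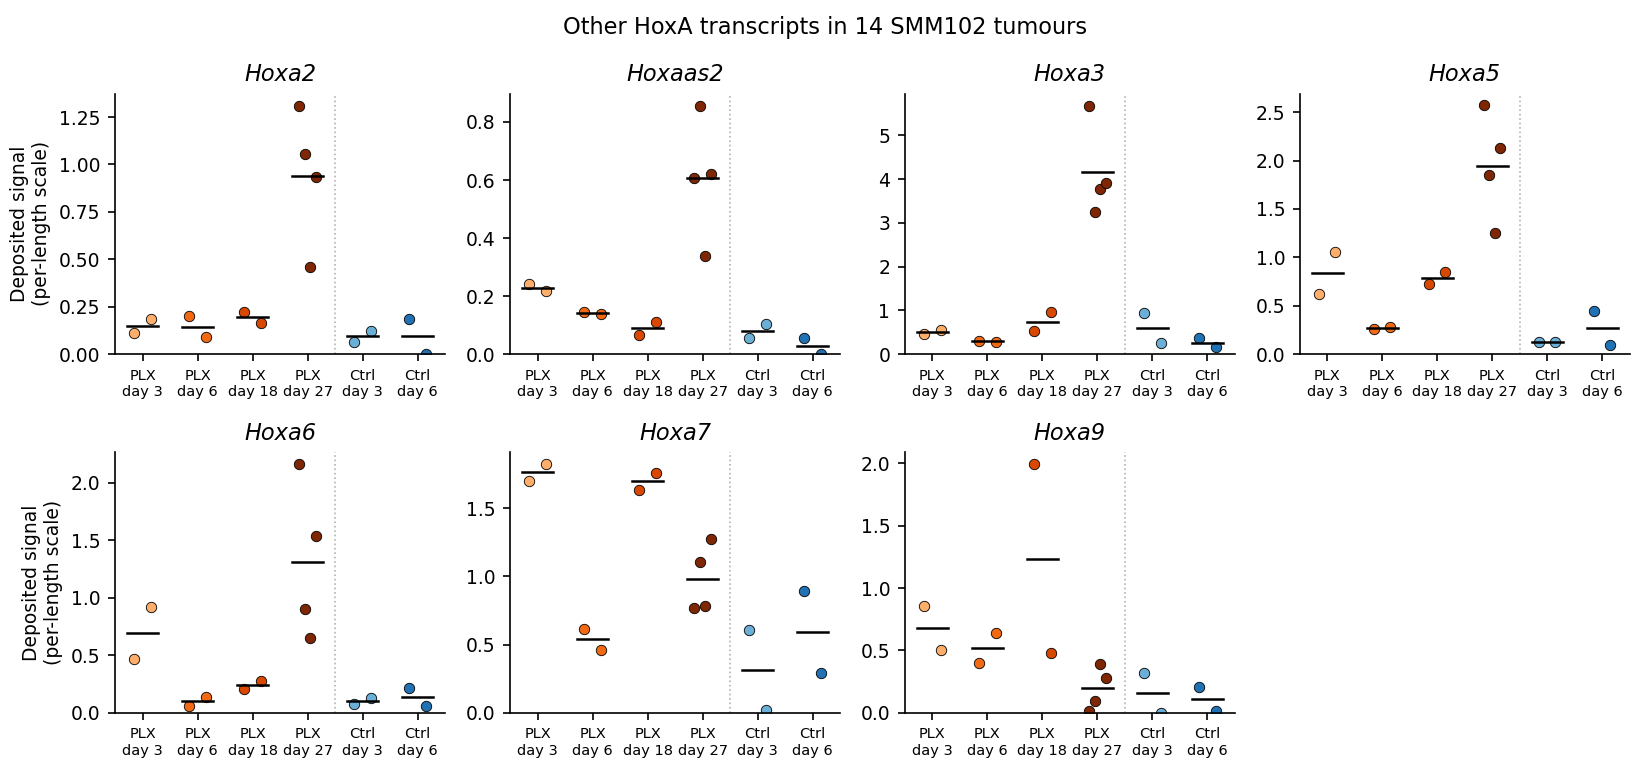
Deposited signal (y axes, per-length scale, each panel with its own range) of 7 other HoxA transcripts in each of 14 tumours by group (x axes), PLX4032 groups left of the dotted line and controls right of it; points are tumours and bars are group means. Hoxa2, Hoxa3, Hoxa5, Hoxa6 and Hoxaas2 have their highest values on day 27, whereas Hoxa7 peaks on days 3 and 18. The highest value of Hoxa9 is that of day 18 tumour 1 (1.99), while day 18 tumour 2 (0.480) is below both tumours of day 3.

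**Figure D3:**
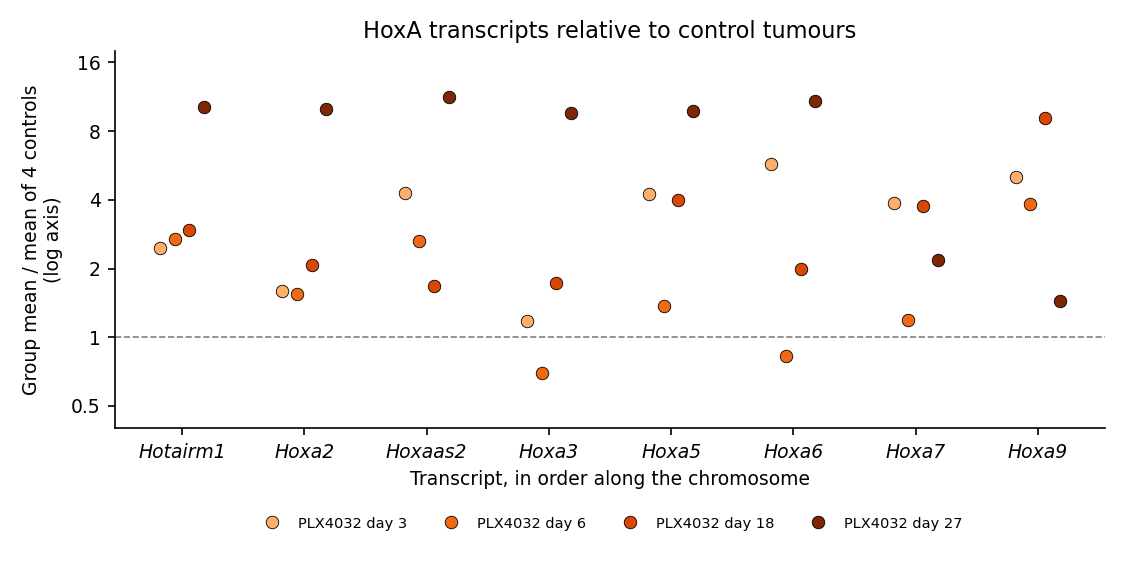
Mean of each PLX4032 group divided by the mean of the 4 controls (y axis, log scale) for 8 HoxA transcripts in chromosome order (x axis), with 1 point per treated day and a dashed line at equality. On day 27 the ratio lies between 9.60 and 11.3 from Hotairm1 to Hoxa6 and is 2.17 for Hoxa7 and 1.45 for Hoxa9, and the control means other than that of Hotairm1 are only 0.0537 to 0.453.

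Summed over the 4 coding genes Hoxa2, Hoxa3, Hoxa5 and Hoxa6, the signal was 6.14 to 11.7 on day 27, against 0.330 to 1.21 in the controls. Summed over Hoxa7 and Hoxa9 it was 2.33 to 2.56 on day 3, 1.01 to 1.10 on day 6, 2.24 to 3.63 on day 18 and 0.784 to 1.56 on day 27, against 0.0235 to 1.10 in the controls. Hotairm1 alone made up 65.1% to 73.0% of the summed signal of these 8 HoxA transcripts on day 27 and 34.4% to 81.3% in the controls.

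The tests, whose contrasts do not include day 27, asked whether the members moved earlier in treatment. The filter on low values did use day 27, and Hoxa2, Hoxa3 and Hoxa5 were tested only because of it. The fit without the tumours of day 27 kept the same filter. Days 3, 6 and 18 were each set against the same 4 controls, so these comparisons share them. On day 3, limma with Benjamini-Hochberg adjustment over all genes called 3 of the 5 tested members higher, when 45.8% of all genes were called in either direction and 24.9% higher. Hoxa7 rose by 0.96 (SE 0.21, adjusted p = 0.0037), Hotairm1 by 1.13 (SE 0.39, adjusted p = 0.033) and Hoxa5 by 0.62 (SE 0.19, adjusted p = 0.024), each in log2(value + 1) and in 2 of 2 tumours above all controls, as were 31.2% of all genes. Hoxa2 and Hoxa3 differed by 0.07 (adjusted p = 0.76) and 0.11 (adjusted p = 0.72) on that scale. With that many genes called on day 3, the share of members called is no result about the members. The call for Hotairm1 was lost without control day 3 tumour 1 (adjusted p = 0.085), control day 6 tumour 2 (0.069), PLX4032 day 3 tumour 1 (0.094) or PLX4032 day 3 tumour 2 (0.16), without all 4 tumours of day 27 (0.082), in a fit of the compared groups alone (0.14) and against control day 3 alone (0.071). That for Hoxa5 was lost in the fit of the compared groups alone (adjusted p = 0.058), with a pseudocount of 5 (0.073), and without control day 6 tumour 2 (0.066) or PLX4032 day 3 tumour 2 (0.21). After quantile normalisation, which moved the median of all genes on day 3 to -0.15, Hotairm1 (adjusted p = 0.11) and Hoxa5 (adjusted p = 0.14) also missed the threshold, and the share of higher calls among all calls was 38.9% in place of 54.4%.

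On day 6, 0 of the 5 tested members were called by limma, when 5.92% of all genes were and 4.49% were called higher, and 1 member had an unadjusted p under 0.05. That member was Hotairm1, whose difference was 1.23 in log2(value + 1) (95% interval 0.38 to 2.08, adjusted p = 0.083). Without the 4 tumours of day 27, which came from 2 mice and were fitted as independent, limma called 1 of all genes tested on day 6 in place of 937, and Hotairm1 had an adjusted p of 0.20. Leaving out control day 6 tumour 1, the control with the highest Hotairm1 value, gave an adjusted p of 0.012 in limma. On day 18, limma called 1 of 5 members, beside 7.92% of all genes called and 5.42% called higher. Hoxa7 rose by 0.93 (SE 0.21, adjusted p = 0.025), while Hotairm1 differed by 1.35 (95% interval 0.50 to 2.21, adjusted p = 0.057) and Hoxa5 by 0.59 (95% interval 0.16 to 1.01, adjusted p = 0.084). Without control day 3 tumour 2, control day 6 tumour 2 or either tumour of day 18 the adjusted p of Hoxa7 was 0.061 to 0.13, and it was 0.066 without all tumours of day 27 and 0.14 in a fit of the compared groups alone. With a pseudocount of 0.1 Hoxa7 missed the threshold (adjusted p = 0.062) and Hoxa5 was called in its place (adjusted p = 0.04), and without control day 6 tumour 1 both Hotairm1 (adjusted p = 0.0063) and Hoxa5 (adjusted p = 0.05) were called. After quantile normalisation the share of higher calls among all calls was 60.4% in place of 75.9% on day 6 and 44.9% in place of 68.4% on day 18, and after median-of-ratios rescaling it was 56.5% on day 18.

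Between treated days, limma called 0 of 5 members on day 18 against treated days 3 and 6, when 20.3% of all genes were called, and 0 members had an unadjusted p under 0.05. Hotairm1 averaged 6.67 on day 18 and 5.79 on treated days 3 and 6, a difference of 0.17 in log2(value + 1) whose 95% interval ran from -0.68 to 1.03. Its level in the treated tumours before day 27 thus lay within 4.70 to 7.85, with no step between days larger than the spread between tumours. Control day 6 against control day 3 gave 0 of 5 members called in limma, 0 with an unadjusted p under 0.05, and 0 of all genes called. Hotairm1 differed between the controls by -0.08 (95% interval -1.06 to 0.91), and the 2 tumours of each control day stood further apart than the 2 days' means of 2.27 on day 6 and 2.23 on day 3.

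Markers of other cells moved over the same days. The sum of 11 fibroblast markers (such as Dcn and Col1a1) was 3155 to 4050 in the controls. It was 5335 to 7530 on day 3 and 3588 to 4689 on day 6. On days 18 and 27 it was 5660 to 6894 and 2751 to 3214. Of the 11, limma called 10 higher and 1 lower on day 3, and 0 higher and 1 lower on day 6. On day 18 limma called 6 of 11 higher and 0 lower. Pdgfra, also on this list, was below every control on days 3, 6 and 18. It had 86.1 to 116, 77.5 to 93.4 and 92.7 to 97.3 on these days, against 135 to 264 in the controls. Days 3 and 18 are those on which Hoxa7 was high, and the fibroblast sum was not alone in being high on them. Neutrophil markers summed to 108 to 181 on day 3, 44.2 to 70.1 on day 6 and 89.1 to 122 on day 18, against 4.13 to 40.1 in the controls. Schwann markers summed to 124 to 149, 59.6 to 85.5 and 103 to 115 on these days, against 73.1 to 90.2 in the controls. The part of any of these cells in the Hoxa7 result was not tested. Adipocyte markers (9 of 10 in the table) summed to 2730 to 2782 on day 18, against 24.0 to 73.1 in the controls, and to 19.5 to 29.0 on day 27. Macrophage and monocyte markers (11 of 11) summed to 6542 to 8497 on day 3, 2747 to 4404 on day 6, 1981 to 3355 on day 18 and 940 to 1718 on day 27, against 626 to 2166 in the controls. On day 3, when 3 members were called, limma also called higher 11 of 11 macrophage, 10 of 10 endothelial, 10 of 10 T cell and 5 of 7 neutrophil markers, beside 24.9% of all genes, and the part of these cells in the member calls was not tested. On day 6 it called higher 9 of 10 T cell, 2 of 11 macrophage, 0 of 10 endothelial and 0 of 7 neutrophil markers, beside 4.49% of all genes. T cell markers summed to 111 to 364 on day 6, against 22.7 to 48.7 in the controls. Their part in the member values of day 6 was not tested. On day 27, when Hotairm1, Hoxa2, Hoxa3 and Hoxa5 were high, 0 of 11 fibroblast, 0 of 9 adipocyte and 0 of 11 macrophage markers were higher than the controls without overlap, and 4, 4 and 0 of them were lower. By the same measure 2 of 10 endothelial markers were higher, Cdh5 (34.5 on day 27 and 17.3 in the controls) and Emcn (12.4 and 6.74), and so were 2 of 6 haematopoietic progenitor markers, Mecom (2.73 and 1.63) and Mycn (3.03 and 0.392). Also higher were Kcnj8 among 9 pericyte and smooth muscle markers (10.2 on day 27 and 3.56 in the controls) and Sox10, which stands in both the Schwann and the melanocyte lists. Lower without overlap were 8 of 10 skeletal muscle, 2 of 9 pericyte and smooth muscle, 2 of 7 Schwann, 2 of 6 progenitor and 1 of 10 T cell markers, beside 7.33% of all genes higher and 6.43% lower. The part of these cells in the day 27 values was not tested. The 3 Y-linked transcripts in the table, which the female hosts do not carry, summed to 20.3 to 22.8 on day 3, 14.3 to 25.0 on day 6, 22.5 to 42.2 on day 18 and 22.6 to 46.8 on day 27, against 30.7 to 44.7 in the controls, and limma called 1 of the 3 lower on day 3. In bulk tumours, fewer cells of a type and less RNA per cell cannot be told apart.

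**Figure D4:**
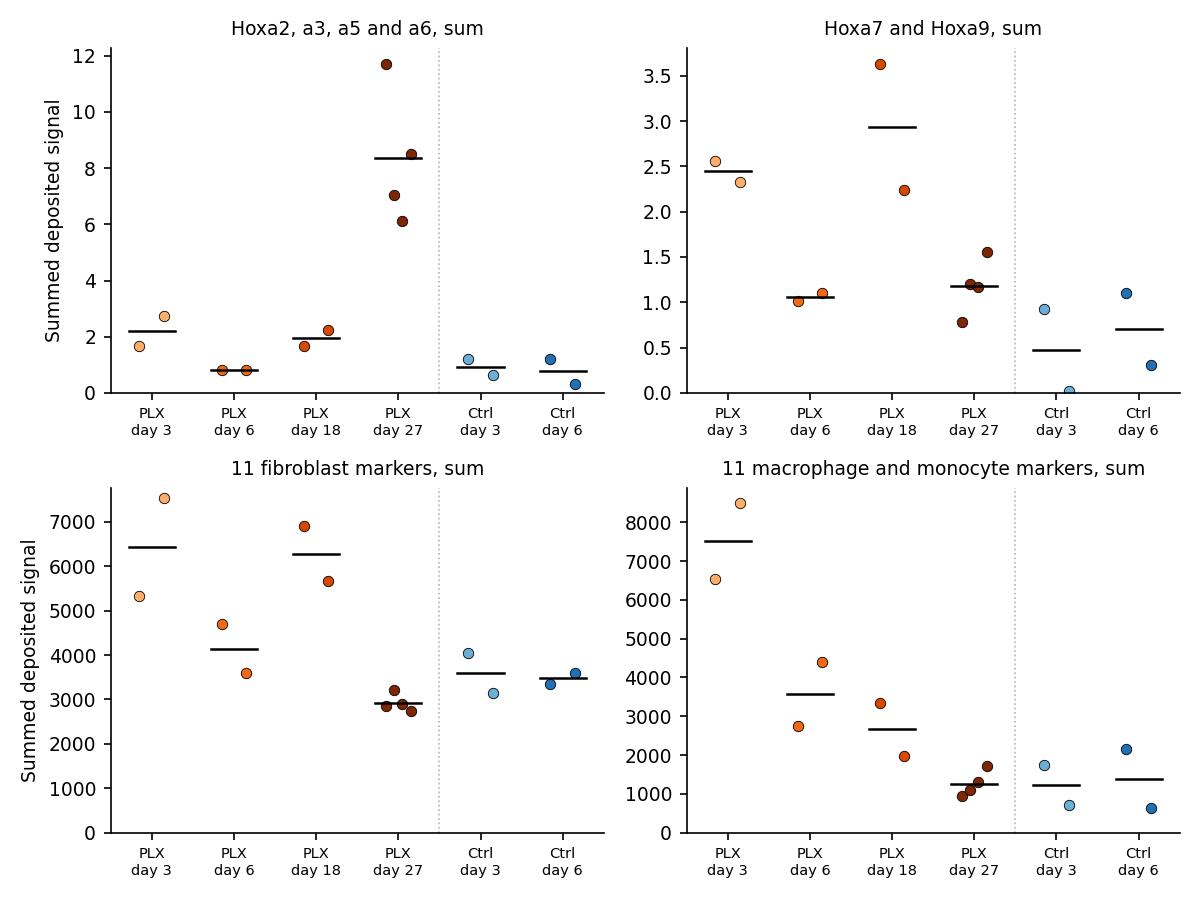
Summed deposited signal (y axes, each panel with its own range) of Hoxa2, Hoxa3, Hoxa5 and Hoxa6, of Hoxa7 with Hoxa9, of 11 fibroblast markers and of 11 macrophage and monocyte markers in each of 14 tumours by group (x axes), PLX4032 groups left of the dotted line and controls right of it; points are tumours and bars are group means. The sum of Hoxa2, Hoxa3, Hoxa5 and Hoxa6 is highest on day 27 (6.14 to 11.7), whereas the other 3 sums are highest on day 3 or 18.

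Melanocyte markers, which the melanoma label would call for, were low. Of 11 melanocyte markers 5 were in the table, and their sum was 29.4 to 43.1 on day 3, 13.3 to 14.5 on day 6, 12.2 to 16.4 on day 18 and 8.65 to 14.5 on day 27, against 9.50 to 19.1 in the controls. On day 3, with the member calls, limma called 4 of these 5 higher, and their part in those calls was not tested. Sox10, a neural crest and melanocyte regulator, was 0.288 to 0.394 on day 3, 0.204 and 2.07 in the tumours of day 18 and 0.612 to 2.25 on day 27, against 0.0338 to 0.177 in the controls. On day 6 Sox10 was 0.0572 and 0.0941, within the controls. Mitf, the master regulator of melanocytes, was 6.55 to 10.4 on day 3, 2.56 to 3.12 on day 6, 1.82 to 3.59 on day 18 and 1.56 to 2.89 on day 27, against 2.76 to 4.73 in the controls.

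Several genes of the other Hox clusters had higher per-length signals than the HoxA coding genes. Of the HoxB genes 0 of 7 tested were above all controls on day 27 without overlap, of HoxD 0 of 5 and of HoxC 2 of 5, beside 7.33% of all genes; the difference between clusters was not tested. Hoxb7 averaged 16.8 on day 27 and 15.1 in the controls, while Hoxb3 differed by -0.09 in log2(value + 1). Hoxb4 averaged 6.21 on day 27 and 5.86 in the controls, Hoxb2 6.31 and 5.36, and Hoxb6 6.04 and 6.09. Hoxc6 averaged 14.8 on day 27 and 12.2 in the controls, Hoxd8 15.1 and 14.3, and Hoxd4 4.08 and 5.39. The HoxC exceptions were Hoxc4 (5.02 on day 27 and 2.41 in the controls) and its neighbour Hoxc5 (2.96 and 1.81).

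On day 3 the test called Hoxc8 (1.01, adjusted p = 0.0044 in limma), Hoxc9 (0.82, 0.030), Hoxd10 (0.97, 0.013) and Hoxd4 (0.63, 0.020) higher in log2(value + 1) and Hoxb6 lower (-0.48, 0.032). Hoxc9 and Hoxd4 missed the threshold after quantile normalisation. In limma on the compared groups alone, Hoxb6 (adjusted p = 0.14), Hoxd10 (0.079) and Hoxd4 (0.084) missed it. Without the tumours of day 27, Hoxb6 (0.075) and Hoxc9 (0.078) did so. Hoxc8 kept its day 3 call in each of these fits. On day 18 the test called 0 of 7 HoxB genes, 0 of 5 HoxD genes and 1 of 5 HoxC genes against the controls, and this was Hoxc8, higher by 1.36 (adjusted p = 0.0062 in limma). Hoxc8 averaged 1.94 on day 3, 0.522 on day 6, 2.68 on day 18 and 0.241 on day 27, against 0.477 in the controls, so that, like Hoxa7, it stood high on days 3 and 18. Of 3 tested noncoding RNAs from these clusters, Hoxd3os1 (-0.58, adjusted p = 0.016) and Hoxb3os (-0.59, adjusted p = 0.047) were called lower by limma on day 3, and Hoxb5os was not called. In limma on the compared groups alone, the calls of Hoxd3os1 (adjusted p = 0.06) and Hoxb3os (0.14) were lost. That of Hoxb3os was also lost without the tumours of day 27 (0.069).

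**Figure D5:**
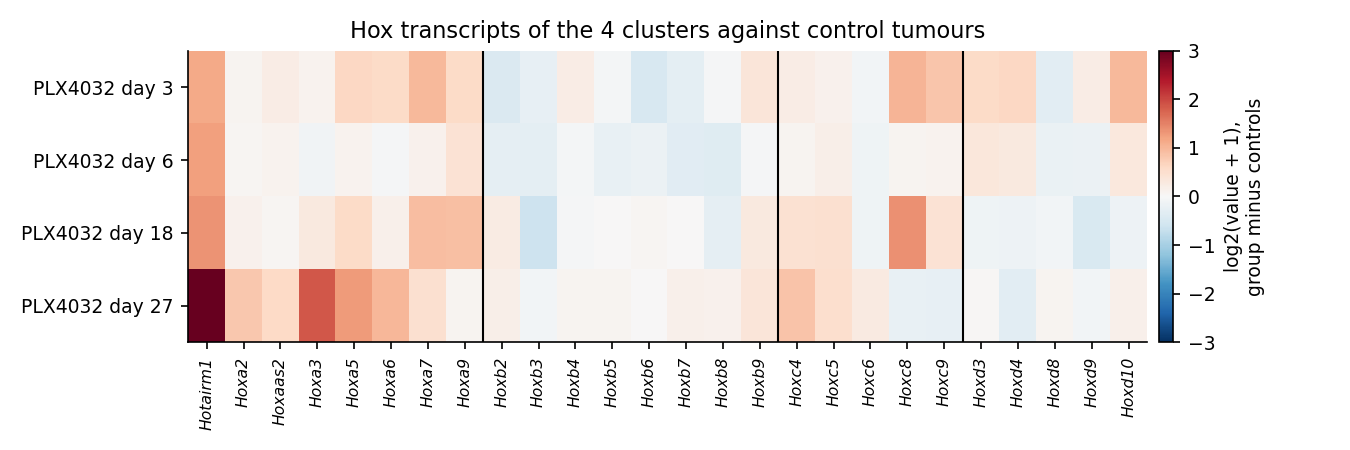
Difference in mean log2(value + 1) from the 4 controls (colour) for each PLX4032 day (rows) and each of the Hox transcripts shown (columns), with vertical lines between the HoxA, HoxB, HoxC and HoxD clusters. On day 27 Hotairm1 differs by 3.01 and Hoxa3 by 1.86, while Hoxc8 differs by 1.01 on day 3 and 1.36 on day 18.

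Genes beside the cluster were measured too. Of 8 tested flanking genes, limma called 4 higher and 2 lower on day 3, 2 higher on day 6 and 1 higher on day 18, beside 45.8%, 5.92% and 7.92% of all genes called in either direction. Snx10, an endosomal sorting protein, was higher by 1.63 in log2(value + 1) on day 3 (adjusted p = 0.00018) and by 0.94 on day 6 (0.034), Skap2 by 1.17 on day 3 (0.00042) and Creb5 by 0.83 on day 6 (0.040), all in limma. Jazf1 was higher by 0.92 on day 3 (adjusted p = 0.00062) and 1.01 on day 18 (0.0020), and Cbx3 was lower by limma on day 3 (-0.76, adjusted p = 0.00044). Of the 2 calls on day 6, neither Snx10 (adjusted p = 0.14) nor Creb5 (0.14) held in limma without the tumours of day 27, and Creb5 missed the threshold after quantile normalisation (0.053). On day 27, 4 of the 8 were above all controls without overlap, beside 7.33% of all genes: Skap2, an adaptor of immune cell signalling, averaged 55.5 on day 27 and 31.7 in the controls, Cbx3, a heterochromatin protein, 231 and 162, Hnrnpa2b1, an RNA-binding protein, 1340 and 1147, and Creb5 6.46 and 3.81. Hibadh (57.8 on day 27 and 47.6 in the controls), Tax1bp1 (79.7 and 72.4) and Snx10 (16.2 and 15.8) overlapped the controls.

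Cofactors and chromatin regulators of Hox genes were read against 45.8% of all genes called on day 3, 5.92% on day 6 and 7.92% on day 18. Among 8 Pbx, Meis and Pknox cofactors limma called Meis3 (1.83 in log2(value + 1), adjusted p = 0.00028) and Pbx2 (0.52, 0.0012) higher and Pbx3 (-0.70, 0.0057) lower on day 3. On day 27 Pknox1 was above all controls without overlap (14.2 on day 27 and 12.7 in the controls), and Meis1 (4.22 and 5.94), Pbx3 (18.0 and 25.1) and Pknox2 (1.73 and 3.22) were below all of them, beside 7.33% of all genes above and 6.43% below. Of 22 Polycomb genes 6 were higher and 8 lower on day 3, among them Ezh2, the catalytic subunit of one such complex, which fell by 0.83 (adjusted p = 0.00018 in limma), and Jarid2, a partner of Ezh2, which rose by 0.91 (adjusted p = 0.00051 in limma). Cbx7 was also higher (1.24, adjusted p = 0.00082 in limma) and Phf19 lower (-1.07, 0.00085). Jarid2 was the 1 Polycomb gene called on day 6 (0.66, adjusted p = 0.034 in limma), a call that was lost without the tumours of day 27 (0.14). Of 13 Trithorax and MLL genes 2 were higher and 5 lower on day 3. The smallest p-values in limma were those of Psip1 (-1.24, adjusted p = 3.8e-05), Ash2l (-0.60, 0.00085), Aff1 (0.70, 0.0018) and Wdr5 (-0.49, 0.0023). On day 18 Kmt2a, which encodes the MLL methyltransferase, fell by 0.68 (adjusted p = 0.018 in limma). On day 27 Ezh2 averaged 94.3, against 67.5 in the controls, and Phc1 32.1, against 19.7, which were the 2 of 22 Polycomb genes above all controls without overlap; 0 were below.

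Retinoic acid genes, which act upstream of the 3′ end of the cluster in embryos, were called higher in 5 and lower in 1 of 16 tested genes on day 3 and higher in 4 on day 18, beside 45.8% and 7.92% of all genes called. The share on day 3 was below that of all genes and is no result about this pathway. On day 3 the dehydrogenase Dhrs3 (1.23, adjusted p = 0.0012), the receptor Rara (0.61, 0.0014) and Tgm2 (1.45, 0.0022) were higher and the binding protein Crabp1 lower (-1.38, 0.011), all in limma on log2(value + 1). Tgm2 was the 1 gene of this list called on day 6 (1.12, adjusted p = 0.046 in limma), and not without the tumours of day 27 (0.15). On day 18 the retinol carrier Rbp4 was higher by 3.73 (adjusted p = 7.7e-06 in limma), with Aldh1a1, Aldh1a2 and Stra6 also called. In limma on the compared groups alone, the calls of Aldh1a1 (adjusted p = 0.082), Aldh1a2 (0.097) and Stra6 (0.15) were lost. That of Stra6 was also lost without the tumours of day 27 (0.072). Adipocyte markers were high on day 18, and their part in these values was not tested. On day 27 Stra6, a retinol importer, was the 1 of 16 above all controls (8.26 on day 27 and 3.58 in the controls), and Crabp1 (2817 and 5401), Tgm2 (25.8 and 47.9) and Cyp26b1 (0.668 and 2.36) were below all of them.

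The genes whose profile over the 14 tumours lay nearest to Hotairm1 were found by the root mean square difference between centred log2(value + 1) profiles. Outside the HoxA locus, predicted genes, clone names and pseudogenes were left out. The nearest of the rest were Platr16 (0.559), Trp53i11 (0.564), Begain (0.578), Apln (0.584), Sh3gl3 (0.645) and Samd14 (0.660), where Hotairm1's own deviation from its mean was 1.21. Platr16, a noncoding RNA on chromosome 4, had 8.91 to 13.9 on day 27, against 0.402 to 4.47 in the controls. Apln, which encodes the peptide ligand apelin, had 39.7 to 78.6 on day 27, against 9.82 to 13.5 in the controls. Within the locus, and with no tested gene left out of the ranking, Hoxa3 ranked 10 of 15840 genes by this measure, Hoxa5 17, Hoxa6 76, Hoxa2 92 and Hoxa7 1672. These likenesses are descriptions, and since they rest mostly on the 4 tumours of day 27 they carry no test.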

How the data were processed

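Per the labels' protocols, Trizol RNA of whole frozen tumours went into Illumina TruSeq libraries. What the authors deposited is a gene by tumour table of signal for 14 tumours. Its name says TPM, but its columns sum to between 879385 and 1084401 where TPM columns would share 1 sum, so it is treated as a per-length signal of unknown rescaling. Quantification tools in the submitters' processing notes are kallisto and sleuth, with mm10 as the build. Depth is unknown, so no counting intervals are given.

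Columns were assigned to the 6 groups of treatment and day by name. For the 15841 of 18481 genes reaching 1 in at least 2 tumours, limma 3.58.1 (R 4.3.3) was fitted to group means of log2(value + 1) with 8 residual degrees of freedom and a trended variance. The 4 tumours of day 27 give 3 of these 8 and come from 2 mice, but were fitted as independent. The 2-sided p-values were adjusted by Benjamini and Hochberg's method over every gene tested, with a threshold of 0.05, and intervals are 95%. The steps were tested on simulated data, with changes planted only in genes averaging above 2 in log2(value + 1) and all tumours drawn as independent. The coding members averaged below that level, so the simulation does not speak to their tests. Fold changes on this scale understate those of low genes. The members, lists and tests were chosen with earlier results of these data known. The day 27 contrast, which chose the members, was described and not tested. The rule for list genes names those called with the 4 smallest p in each comparison and those averaging 5 or more in a group. It was followed for days 3, 6 and 18 against the controls; list genes of day 18 against treated days, and Polycomb, MLL, cofactor and retinoic acid genes of that level that were not called, are not named. Hoxc5, Pknox2, Cyp26b1 and the single markers were named after their values were seen. Some genes of the HoxA locus and the cofactor list are not reported here and are left out of sums, shares and list counts. Values at 0 can be failed estimates.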

Additional observations from a re-analysis of the deposited data

How the results depend on the processing

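The count of members above all controls on day 27 was 4 and became 5, with Hoxa7 added, after quantile normalisation or without control day 6 tumour 1. On day 3, where 3 members were called, 1 was called with a filter at 5 (which tests 1 member), after quantile normalisation and in a fit of the compared groups alone, and leaving out each tumour in turn gave 1 to 3. Hoxa7 kept its day 3 call in 24 of 24 alternatives, Hoxa5 in 19 of 24 and Hotairm1 in 17 of 25, and Hoxa7 kept its day 18 call in 16 of 23. On day 6, leaving out each tumour gave 0 to 1 members. On day 18, where 1 was called, 0 were called with a filter at 5, in a fit of the compared groups alone and without the tumours of day 27, 2 were called with sample weights, leaving out each tumour gave 0 to 3, and with a pseudocount of 0.1 the 1 called was Hoxa5, not Hoxa7. The counts of 0 on day 18 against treated days 3 and 6 and between the control days held in all alternatives. The causes were not tested. Over the alternatives limma called 4345 to 8075 genes on day 3, 0 to 2145 on day 6 and 178 to 2220 on day 18, beside 7249, 937 and 1254.

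Some differences that were not called changed sign, all in log2(value + 1). After quantile normalisation, Hoxa2 (-0.030) and Hoxa3 (-0.19) did so on day 3, and Hoxa2 (-0.064), Hoxa5 (-0.087) and Hoxa7 (-0.086) on day 6. Against control day 3 alone Hoxa3 was -0.049 on day 3, and against control day 6 alone Hoxa3 was 0.045 and Hoxa7 -0.026 on day 6. Leaving out each tumour in turn, Hoxa3 ranged from -0.051 to 0.26 on day 3 and from -0.27 to 0.046 on day 6, Hoxa7 from -0.044 to 0.28, Hoxa5 from -0.0023 to 0.19 and Hoxa2 from -0.00061 to 0.14 on day 6, and Hotairm1 from -0.051 to 0.40 on day 18 against treated days 3 and 6. Between the controls the ranges were -0.82 to 0.66 for Hotairm1, -0.13 to 0.12 for Hoxa2, -0.62 to 0.0024 for Hoxa3, -0.033 to 0.36 for Hoxa5 and -0.036 to 0.61 for Hoxa7. Among the named genes of the other lists, the fit of the compared groups alone lost 6 calls on day 3, 4 on day 6 and 6 on day 18. Those of day 3 were Hoxb6, Hoxd4, Hoxd10, Hoxd3os1, Hoxb3os and Crabp1. Those of day 18 were Jazf1, Kmt2a, Aldh1a1, Aldh1a2, Stra6 and Hoxc8 (adjusted p = 0.078 in limma). The fit without the tumours of day 27 lost 3, 4 and 1 on these days. Leaving out groups cannot move the difference between the others, so these fits say nothing of direction.

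Without a filter on low values Hoxa9 could be tested and was not called on day 3 (0.57, adjusted p = 0.089), day 6 (0.42, adjusted p = 0.38) or day 18 (0.90, adjusted p = 0.055) in limma. A group left with 1 tumour borrows the spread of the other groups. Averaging the left and right tumours of each day 27 mouse was planned and not run, because the columns do not name mice. No paired analysis was possible because the column numbers do not link tumours across groups.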
